A study of Mus musculus with 8 samples.

Results

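Transcripts of 10 genes mark the endothelium of the kidney and are described here: Pecam1, Cdh5, Kdr, Emcn, Flt1, Tie1, Tek, Ehd3, Plvap and Eng. They were chosen by name and found by Ensembl identifier among the 49315 genes of the count table. The table holds messenger RNA counts of 8 mouse kidneys, 4 labelled control and 4 labelled conditional knockout of Kdm1a, the gene of the histone demethylase LSD1. RNA came from frozen kidney in both groups, and the controls are called wild type in the extraction protocol. The labels give no age, allele, sex, strain, Cre driver or treatment, so it is not known whether the endothelium itself lost the gene. All 10 were present in every library, from 326 counts (Ehd3) to 3269 counts (Plvap), and each passed the filter on low counts.

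Endothelial cells line the glomerular tufts, the capillaries around the tubules, the vasa recta of the medulla, the arteries and the veins of the kidney. Their growth and upkeep depend on VEGF-A, made largely by podocytes and tubule cells and sensed by Kdr and Flt1, and on angiopoietins, sensed by Tek with its partner Tie1. Glomerular endothelium is fenestrated and, once mature, mostly without diaphragms, while the fenestrae of peritubular capillaries carry diaphragms built from the Plvap protein. In whole tissue, fewer endothelial cells and less RNA per endothelial cell cannot be told apart.

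Several facts of the series touch these genes. Total counts ran from 19524945 to 28544511 per library. Kdm1a was at 109.7 to 119.8 counts per 1000000 (CPM) in the controls and at 90.9 to 95.3 CPM in the knockouts (log2 fold change −0.27, SE 0.05, adjusted p 0.0194). That adjusted p rose to between 0.0529 and 0.0765 without control replicate 1 or 3, or without knockout replicate 1, 2 or 4. Control replicate 2 and knockout replicate 3 lay towards the other group in most of the genes below and in the proximal tubule sum. Knockout replicates 1 and 4 and control replicate 4 held adrenal transcripts, with 13 adrenal genes summing to 3369, 443 and 186 CPM against 19.2 to 35.6 CPM in the other 5 libraries. Y-linked transcripts averaged −2.02 to −0.52 in log2 CPM in control replicate 2 and knockout replicates 1 and 4, and 5.65 to 5.96 in the other 5.

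Every one of the 10 genes had a lower mean in the knockout, and 1 of them, Emcn, passed the test. Called means an adjusted p under 0.05 in the edgeR fit over all 18485 genes tested, of which 8.27% were called lower and 6.61% higher. Log2 fold changes of the 10 genes ran from −0.91 for Plvap to −0.12 for Kdr, with a median of −0.48, beside a median of 0.0044 over all genes tested. Of all genes tested, 49.5% had a fold change below 0. At an unadjusted p under 0.05 there were 7 of the 10, beside 35.1% of all genes. The knockout and control ranges overlapped in all 10 genes, whereas the 4 knockouts lay wholly below the 4 controls in 9.58% of all genes.

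**Figure D1:**
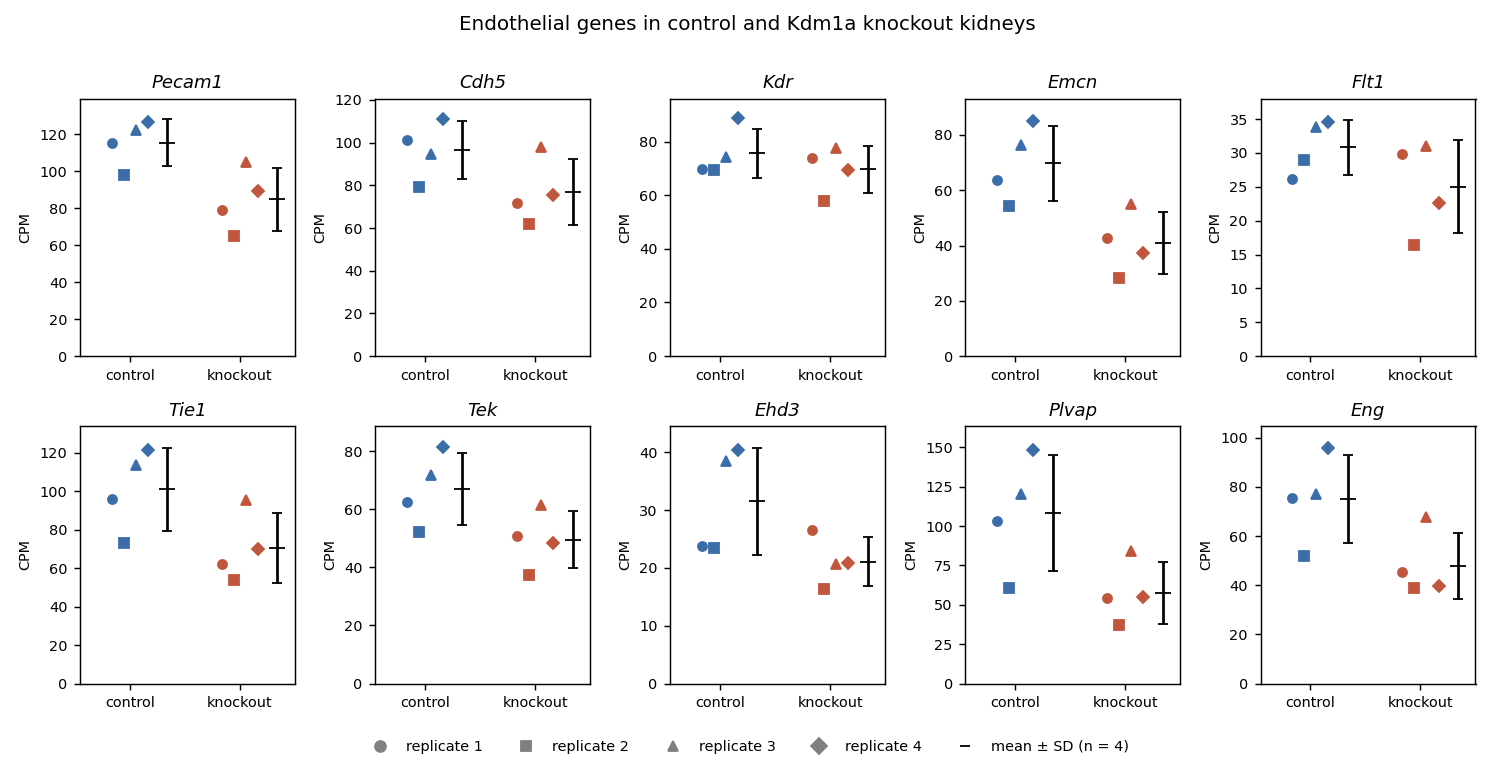
Abundance of the 10 endothelial genes in CPM in each library, with controls in blue and knockouts in red. Marker shapes give the replicate number, and bars the mean ± SD of 4 libraries. Knockout replicate 2 is the lowest library and control replicate 4 the highest in every panel, and the ranges of the groups overlap throughout.

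Endomucin (Emcn, ENSMUSG00000054690, chromosome 3, 137341067 to 137432185, plus strand, GRCm38 coordinates throughout) is a sialomucin of capillary and venous endothelium. It stood at 63.6, 54.3, 76.2 and 84.9 CPM in control replicates 1 to 4 and at 42.7, 28.1, 55.0 and 37.3 CPM in knockout replicates 1 to 4. The groups met only where knockout replicate 3 exceeded control replicate 2. Emcn thus fell from 69.8 ± 13.5 to 40.8 ± 11.2 CPM (mean ± SD, n = 4 each), which is −0.77 in log2 units with SE 0.21 and adjusted p 0.0382. The call held without control replicate 2 or knockout replicate 3. It was lost without any other single library, with adjusted p values of up to 0.112 without knockout replicate 4, and with the Y-linked (0.0641) or adrenal (0.0664) covariate.

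Plvap (ENSMUSG00000034845, chromosome 8, 71497765 to 71511752, minus strand), the diaphragm protein of fenestrae and caveolae, had the widest spread. Controls held 103, 60.6, 120.3 and 149 CPM and knockouts 54.1, 36.9, 84.4 and 54.9 CPM. Control replicate 2 lay below knockout replicate 3 and close to the other knockouts. The means were 108 ± 36.8 and 57.6 ± 19.7 CPM, a difference of −0.91 on the log2 scale (SE 0.30, adjusted p 0.0680) that did not pass. It was called without control replicate 2 (−1.11, adjusted p 0.00921), where 19.0% of all genes were called lower. It was also called without knockout replicate 3 (−1.13, adjusted p 0.0341), where 9.30% were. Both libraries lay towards the other group in this gene, so these calls are not independent support. Without any other single library the adjusted p of Plvap was 0.135 to 0.173. Plvap overlaps Gtpbp3 on the opposite strand, which was at 24.6 to 33.3 CPM (log2 fold change −0.07, adjusted p 0.614). Strand use in the counting is not given in the sources used here.

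Endoglin (Eng, ENSMUSG00000026814, chromosome 2, 32646595 to 32682669, plus strand) is a co-receptor for BMP9 and BMP10 and other ligands of the TGF-beta family. Controls held 75.7, 52.0, 77.0 and 95.7 CPM and knockouts 45.6, 38.9, 67.6 and 39.9 CPM. The other 3 knockouts were below all controls, and only knockout replicate 3 was above control replicate 2. The log2 fold change was −0.65 (SE 0.22, adjusted p 0.0734). Fpgs, which overlaps Eng on the opposite strand, was itself called lower (−0.39, SE 0.10, adjusted p 0.0332) at 34.4 to 57.7 CPM, and its part in the value of Eng was not tested.

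Pecam1 and Cdh5 encode adhesion molecules of endothelial junctions, PECAM-1 and VE-cadherin. Pecam1 (ENSMUSG00000020717, chromosome 11, 106654217 to 106750628, minus strand) was at 115, 97.9, 122 and 126 CPM in controls and at 79.1, 65.0, 105 and 89.4 CPM in knockouts. Again only knockout replicate 3 reached into the controls, above control replicate 2. The log2 fold change was −0.45 (SE 0.14, adjusted p 0.0632). Cdh5 (ENSMUSG00000031871, chromosome 8, 104101625 to 104144511, plus strand) was at 101, 79.2, 94.8 and 111 CPM in controls and at 71.6, 61.7, 98.1 and 75.6 CPM in knockouts. Here knockout replicate 3 exceeded 2 of the 4 controls, and the log2 fold change was −0.33 (SE 0.15, adjusted p 0.148).

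Ehd3 (ENSMUSG00000024065, chromosome 17, 73804841 to 73832093, plus strand) encodes a membrane-trafficking ATPase and, within the kidney, marks glomerular endothelium. Controls held 23.8, 23.4, 38.6 and 40.4 CPM and knockouts 26.6, 16.4, 20.7 and 20.8 CPM. The controls fell into a lower pair, replicates 1 and 2, and a higher pair, and knockout replicate 1 lay above the lower pair. The log2 fold change was −0.58 (SE 0.22, adjusted p 0.0967). Ehd3 was called without control replicate 2 (−0.70, adjusted p 0.0289), where 19.0% of all genes were called lower. Without any other single library its adjusted p was 0.0994 to 0.235.

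The VEGF receptors differed least between the groups. Kdr (ENSMUSG00000062960, chromosome 5, 75932827 to 75978458, minus strand), which encodes the main signalling receptor VEGFR-2, was at 69.7, 69.2, 74.4 and 88.9 CPM in controls. Knockouts held 73.9, 57.7, 77.6 and 69.4 CPM, so that 3 of the 4 knockouts lay within the range of the controls. The means were 75.6 ± 9.20 and 69.6 ± 8.64 CPM (log2 fold change −0.12, SE 0.11, adjusted p 0.478). Flt1 (ENSMUSG00000029648, chromosome 5, 147561604 to 147726011, minus strand) encodes VEGFR-1, which binds VEGF-A tightly and, in its soluble form, withholds it from Kdr. It was at 26.1, 28.9, 33.9 and 34.5 CPM in controls and at 29.9, 16.4, 31.1 and 22.7 CPM in knockouts (−0.30, SE 0.19, adjusted p 0.289). Neither receptor was called in any of the 18 alternative fits. The count of Flt1 is summed over all its exons, so soluble and membrane forms are not separated. The ratio of Kdr to Flt1 CPM was 2.20 to 2.67 in controls and 2.47 to 3.51 in knockouts, which overlap.

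Tek encodes the angiopoietin receptor TIE2, and Tie1 its orphan partner. Tek (ENSMUSG00000006386, chromosome 4, 94739289 to 94874976, plus strand) was at 62.4, 52.2, 71.9 and 81.4 CPM in controls and at 51.0, 37.4, 61.6 and 48.3 CPM in knockouts (log2 fold change −0.43, SE 0.17, adjusted p 0.107). Tie1 (ENSMUSG00000033191, chromosome 4, 118471191 to 118490061, minus strand) was at 95.9, 72.9, 113.9 and 121 CPM in controls and at 62.3, 53.7, 95.6 and 69.7 CPM in knockouts (−0.52, SE 0.20, adjusted p 0.103). In both genes knockout replicate 3 lay among the controls and the other 3 knockouts below control replicate 2. The ratio of Tek to Tie1 CPM stayed between 0.631 and 0.715 in controls and between 0.644 and 0.818 in knockouts.

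**Figure D2:**
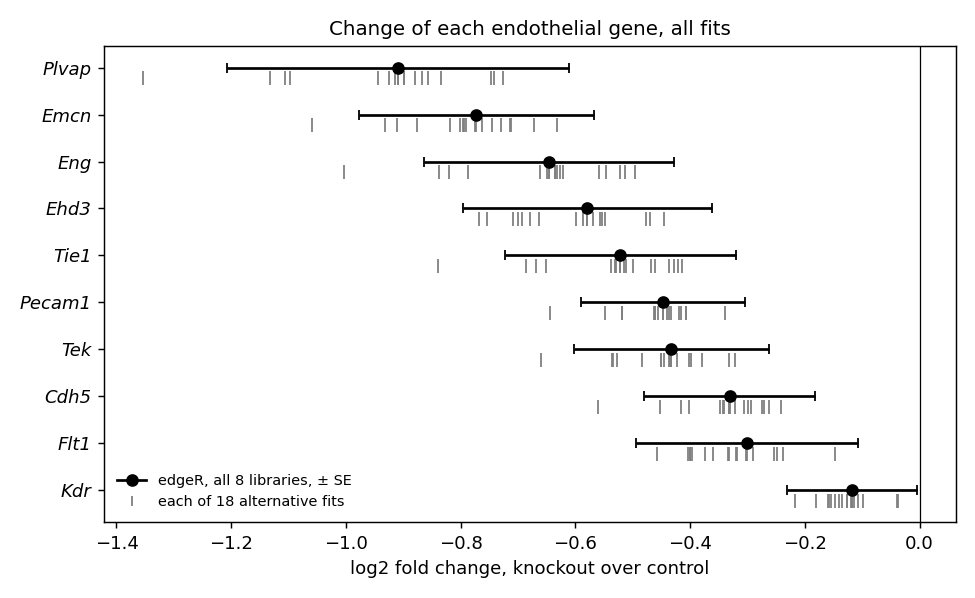
Log2 fold change (knockout over control) of each endothelial gene. Points are the edgeR fit of all 8 libraries with its standard error, and grey ticks the 18 alternative fits. Plvap lies farthest from 0 at −0.91 and Kdr nearest at −0.12, and every tick is below 0.

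The 10 genes ranked the libraries in much the same way. Knockout replicate 2 was the lowest of all 8 libraries in 10 of 10 genes, and control replicate 4 the highest in 10 of 10. Control replicate 2 was the lowest control in 9 genes, with Flt1 the exception. Knockout replicate 3 was the highest knockout in 9, with Ehd3 the exception. Set against the mean of the controls, the median of the 10 genes was −0.09, −0.36, 0.12 and 0.27 (log2) in control replicates 1 to 4 and −0.49, −0.91, −0.13 and −0.50 in knockout replicates 1 to 4. Knockout replicate 3 thus lay closer to the control mean than control replicate 2 did.

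The count of calls followed those 2 libraries. Without control replicate 2, 8 of the 10 genes were called lower (all but Kdr and Flt1), beside 19.0% of all genes called lower. Without knockout replicate 3, 6 were called (Cdh5, Emcn, Eng, Pecam1, Plvap and Tie1), beside 9.30%. With both left out, 8 were called, beside 22.2%, and the median log2 fold change was −0.68. Both libraries lay towards the other group in most of these same genes, so leaving them out was bound to widen the differences. The calls gained that way are not independent support. None was called without any other single library, in fits that called few genes at all: 1.28%, 0.928% and 1.83% of genes were lower without control replicates 1, 3 and 4, and 1.12%, 1.47% and 0.230% without knockout replicates 1, 2 and 4. With all libraries, DESeq2 called 6 (beside 13.6%) and limma-voom 8 (beside 22.9%). The Y-linked and adrenal covariates left 0 (beside 5.62% and 3.61%). Emcn alone was called with DESeq2 size factors (8.49%), without a filter (4.51%) and with a mean of at least 1 CPM (9.41%). Without knockout replicates 1 and 4, the libraries richest in adrenal transcripts, the median was −0.44, 0 of the 10 were called and 0.00% of all genes were called lower. All 10 fold changes were below 0 in each of the 18 alternatives, whose medians ran from −0.68 to −0.38. The alternatives share most of their libraries.

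To see which genes differed from the shared endothelial level, each gene was set against Pecam1 in its own library as a log2 ratio. By limma over all genes tested, 0 of the other 9 were called, beside 35.8% of all genes, and 2 had an unadjusted p under 0.05, beside 51.8%. Pecam1 itself was at −0.45, and the median difference from it over all genes was 0.47. The shares over all genes in this comparison include that shift. Kdr to Pecam1 was −0.73, −0.50, −0.71 and −0.51 in controls and −0.10, −0.17, −0.44 and −0.37 in knockouts. The groups did not overlap, as in 18.4% of all genes with knockouts higher, and the difference was 0.34 (SE 0.16, adjusted p 0.0951). This lay below the median of all genes. Against Cdh5 in place of Pecam1 the difference of Kdr was 0.22 (adjusted p 0.301). Emcn to Pecam1 was −0.86, −0.85, −0.68 and −0.57 in controls and −0.89, −1.21, −0.93 and −1.26 in knockouts, again without overlap, as in 2.26% of all genes with knockouts lower (difference −0.33, SE 0.17, adjusted p 0.116). Plvap to Pecam1 was −0.16, −0.69, −0.02 and 0.23 in controls and −0.55, −0.81, −0.32 and −0.70 in knockouts, where control replicate 2 lay with the knockouts. Its difference was −0.44 (SE 0.20, adjusted p 0.0878).

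Plvap was called against Pecam1 without control replicate 2 (−0.61, adjusted p 0.0108), beside 51.1% of all genes called, and without knockout replicate 3 (−0.53, adjusted p 0.0335), beside 58.3%. The ratio of Kdr was higher by 0.40 in that last fit (adjusted p 0.0369). With both libraries left out, Plvap (−0.71), Emcn (−0.41) and Kdr (0.44) were called, with adjusted p values of 1.86e-04, 0.0333 and 0.0215, beside 70.0% of all genes. The other 6 genes, Cdh5, Flt1, Tie1, Tek, Ehd3 and Eng, differed from Pecam1 by −0.19 to 0.13, with overlapping groups and adjusted p values of 0.377 to 0.893.

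**Figure D3:**
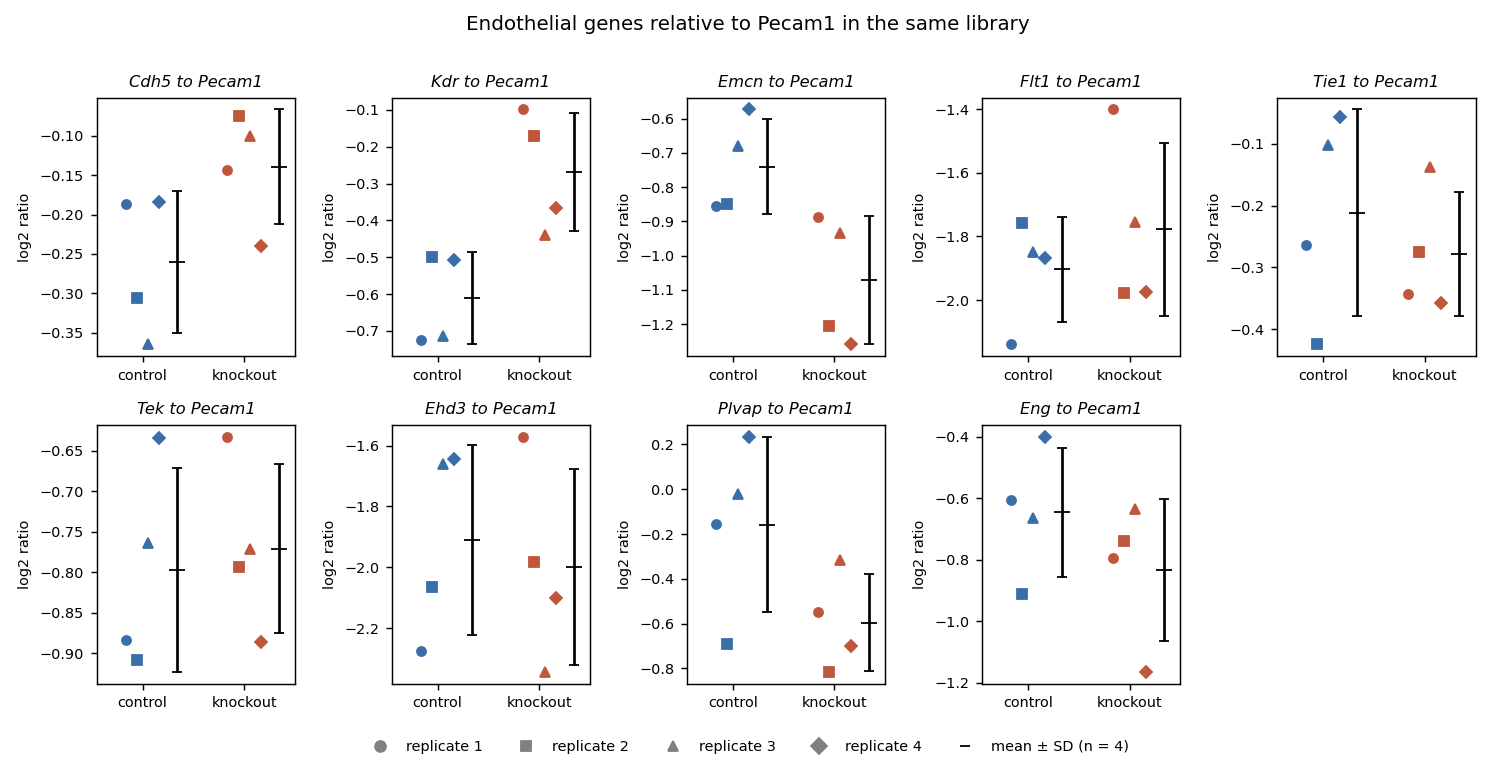
Log2 ratio of each endothelial gene to Pecam1 in the same library (prior count 2), with the mean ± SD of 4 libraries. Vertical axes differ between panels. The groups are apart for Kdr, higher in knockouts, and for Emcn, lower in knockouts, and overlap for the other 7 genes. Over all genes, 18.4% are apart with knockouts higher and 2.26% with knockouts lower.

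Levels can be compared between genes only per length, here as CPM per 1000 bases of summed exon. In controls Plvap led at 54.5 ± 18.5, followed by Cdh5 at 23.0 ± 3.19, Tie1 at 20.6 ± 4.39, Eng at 18.6 ± 4.42 and Pecam1 at 18.5 ± 2.01. Tek (14.2 ± 2.66), Emcn (12.9, highest 15.7), Ehd3 (8.62 ± 2.52) and Kdr (8.37 ± 1.02) came next, and Flt1 was last at 2.28 ± 0.300 (mean ± SD, n = 4). In controls the ranges of neighbours in this order overlapped, except Plvap above Cdh5 and Kdr above Flt1. In knockouts Plvap was at 29.0 ± 9.92 and its range overlapped that of Cdh5 at 18.3 ± 3.66, while Kdr (7.71 ± 0.957) stood ahead of Emcn (7.54 ± 2.07) and Ehd3 (5.77 ± 1.14). Flt1, at 1.85 ± 0.506, was again last and below the range of Ehd3.

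RefSeq (GRCm38.p6) gave the 250 bases before and 50 after the start of 7 of the 10 genes. The windows of 3 are shown, 5′ to 3′ on the strand of the gene: Emcn, the gene called, Kdr, the gene nearest to 0, and Ehd3, the glomerular gene. Capitals mark CAGGAAG, a sequence of the type bound by endothelial ETS factors such as ERG, on either strand.
Emcn, chr3:137340828-137341127, plus strand: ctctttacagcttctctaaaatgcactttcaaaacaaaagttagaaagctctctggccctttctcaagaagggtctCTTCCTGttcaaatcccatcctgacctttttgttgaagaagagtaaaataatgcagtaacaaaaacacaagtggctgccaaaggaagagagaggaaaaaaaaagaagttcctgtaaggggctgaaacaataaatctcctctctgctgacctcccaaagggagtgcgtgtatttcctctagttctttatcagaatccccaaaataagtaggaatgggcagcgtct
Ehd3, chr17:73804591-73804890, plus strand: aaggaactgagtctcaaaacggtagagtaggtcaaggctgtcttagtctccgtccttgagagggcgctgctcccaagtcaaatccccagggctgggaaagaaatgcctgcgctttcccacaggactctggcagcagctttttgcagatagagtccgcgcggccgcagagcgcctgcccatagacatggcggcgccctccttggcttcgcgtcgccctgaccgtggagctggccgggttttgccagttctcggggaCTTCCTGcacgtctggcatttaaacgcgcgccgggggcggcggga
Kdr, chr5:75978406-75978705, minus strand: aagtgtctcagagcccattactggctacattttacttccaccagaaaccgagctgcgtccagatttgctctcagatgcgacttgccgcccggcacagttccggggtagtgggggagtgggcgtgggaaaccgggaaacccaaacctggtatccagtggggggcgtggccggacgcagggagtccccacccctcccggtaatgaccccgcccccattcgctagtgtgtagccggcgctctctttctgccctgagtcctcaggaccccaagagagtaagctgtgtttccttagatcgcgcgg

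CAGGAAG was present on the reverse strand of Emcn and Ehd3 and in none of the other 5 windows. It was present in 13.3% of 32851 such windows of all genes. CCGGAAG, another ETS sequence, was in 0 of the 7 and in 8.86% of all. The SOX-type sequence AACAAT was in Emcn and Tek (10.7% of all) and the GATA-type sequence AGATAA in Tek (11.2% of all), on either strand. TATAAA, read on the strand of the gene, was in Flt1 (8.32% of all). The window of Emcn had 41.0% G and C with 2 CpG, and that of Kdr 60.7% with 19 CpG, where the median window had 52.7% and 7. Matches describe these letters only.

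Ligands of the VEGF and angiopoietin families moved in both directions, and those called higher were ligands of Flt4, which is not among the 10 genes. Of 10 genes of the VEGF pathway, 2 were called higher and 0 lower. Beside this and each list below stand the shares over all genes, 6.61% called higher and 8.27% lower. Vegfc, a ligand chiefly of the lymphatic receptor Flt4, was at 10.9, 17.7, 11.1 and 10.7 CPM in controls and at 23.0, 24.6, 22.1 and 24.9 CPM in knockouts. All knockouts were above all controls, as in 9.29% of genes, and control replicate 2 stood closest to them. The rise in Vegfc was 0.91 in log2 (SE 0.17, adjusted p 0.0172). Vegfd, the other Flt4 ligand, rose from 12.5 ± 3.68 to 20.3 ± 1.55 CPM (0.70, SE 0.19, adjusted p 0.0378), with all knockouts, from 18.4 CPM, above all controls, up to 17.8 CPM. Vegfa, the main ligand of Kdr, was at 129 ± 23.3 and 103 ± 15.4 CPM (−0.32, SE 0.15, adjusted p 0.150), and Vegfb, a ligand of Flt1, at 35.3 ± 4.40 and 29.8 ± 2.55 CPM (adjusted p 0.134). Flt4, Nrp1, Nrp2, Plcg1, Shc2 and Pgf were not called.

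Both main angiopoietins were called lower, 2 of the 7 genes of their list. Angpt1, the agonist of Tek, was at 18.6, 16.2, 22.0 and 21.8 CPM in controls and at 9.97, 9.04, 14.6 and 10.7 CPM in knockouts. The groups did not overlap, and Angpt1 fell by 0.83 in log2 units (SE 0.17, adjusted p 0.0205). Angpt2, which counters or mimics Angpt1 depending on the context, was at 18.6, 8.86, 16.9 and 29.1 CPM in controls and at 6.29, 3.87, 9.03 and 7.88 CPM in knockouts. Knockout replicate 3 slightly exceeded control replicate 2, and Angpt2 fell by 1.43 (SE 0.36, adjusted p 0.0337). The ratio of Angpt2 to Angpt1 ran from 0.546 to 1.34 in controls and from 0.428 to 0.737 in knockouts, which overlap.

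**Figure D4:**
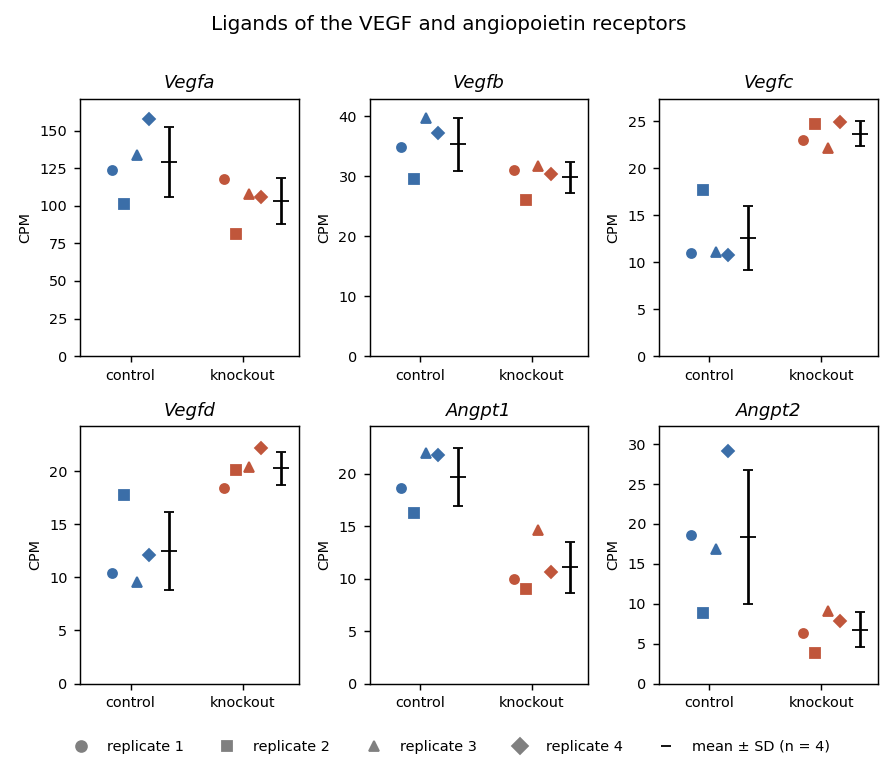
Abundance in CPM of 4 VEGF and 2 angiopoietin genes in each library, with the mean ± SD of 4 libraries. Vegfc and Vegfd are higher in every knockout than in any control, Angpt1 is lower in every knockout, and Vegfa, Vegfb and Angpt2 overlap between groups.

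The call of Vegfc held in 5 of the 8 fits that left out 1 library (single-library fits) and was lost without control replicate 1 or 3 or knockout replicate 4 (adjusted p up to 0.0616). In single-library fits Angpt1 and Angpt2 held only without control replicate 2 or knockout replicate 3, and Vegfd only without control replicate 2, with adjusted p values of up to 0.0729, 0.0877 and 0.106 in the other such fits. Angpt2 was also lost with the Y-linked (adjusted p 0.0695) and adrenal (0.0528) covariates, and Vegfd with the adrenal covariate (0.0715). The calls of the genes named from the lists by rule were all lost without knockout replicates 1 and 4 together (adjusted p of 0.0940 or more). That fit called 0.00% of all genes lower, so the loss of the lower calls is not particular to these genes. The knockouts left out were also those low in Y-linked transcripts. Angpt2 overlaps Mcph1 on the opposite strand, which was at 10.1 to 17.4 CPM (log2 fold change −0.30, adjusted p 0.139).

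Of 15 genes of endoglin signalling, 13 were tested and 0 were called by edgeR. An unadjusted p under 0.05 was found for 4 of the 13, beside 35.1% of all genes. Acvrl1, the type 1 receptor that works with endoglin, had a log2 fold change of −0.16 (adjusted p 0.336). Bmpr2, its type 2 partner, had the smallest adjusted p of the list, 0.0620, at 87.8 ± 20.5 and 119 ± 6.35 CPM. The median of the list was −0.03. The ligands Gdf2 and Bmp10 did not pass the filter, at up to 0.60 CPM.

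Among 11 genes of Notch signalling, 2 ligands were called lower. Dll4, the ligand of arterial and sprouting endothelium, fell from 15.3 ± 3.09 to 9.15 ± 2.32 CPM (−0.74, SE 0.21, adjusted p 0.0491). Dll1, which is also expressed in forming nephrons, fell from 25.3 ± 5.69 to 13.2 ± 3.93 CPM (−0.94, SE 0.23, adjusted p 0.0324). In both, all 4 knockouts were below all 4 controls. The receptors Notch1 (0.03, adjusted p 0.823) and Notch4 (−0.39, adjusted p 0.0868) and the targets Hey1, Hey2, Heyl and Nrarp were not called. In single-library fits Dll4 kept its call only without control replicate 2 or knockout replicate 3, and Dll1 without either of these or knockout replicate 1 (adjusted p up to 0.129 and 0.0987 in the other such fits). Dll4 was also lost with the Y-linked (0.0783) and adrenal (0.0598) covariates.

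Other pan-endothelial genes lay on the same side as the 10 described above. Of 25, 23 had a fold change below 0, beside 49.5% of all genes, with a median of −0.37. Only 1 was called lower, beside 8.27% of all genes. That gene was Icam2, an adhesion molecule of endothelium and platelets, at 19.8, 19.3, 25.5 and 29.3 CPM in controls and 14.9, 12.4, 16.6 and 15.3 CPM in knockouts. It fell by 0.66 (SE 0.16, adjusted p 0.0282) without overlap of the groups, a call kept only without control replicate 2 or knockout replicate 3 among the fits that left out 1 library (up to 0.0854 in the others).

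Genes of single vascular beds did not share one direction. In the arterial list of 9, Gja5, the connexin of arterial and renin-producing cells, fell by 1.09 (SE 0.27, adjusted p 0.0312), from 4.72 to 9.59 CPM in controls to 2.16 to 3.53 CPM in knockouts. It overlaps Gpr89 on the opposite strand, which was called lower as well (−0.44, adjusted p 0.0286). Sema3g, a secreted semaphorin of arterial endothelium, fell from 39.0 ± 13.1 to 15.5 ± 5.75 CPM (−1.33, SE 0.30, adjusted p 0.0264), without overlap. Ltbp4 (0.51, adjusted p 0.0192) and Fbln2 (0.84, adjusted p 0.0477), matrix genes also made by fibroblasts and smooth muscle, rose. All 4 calls were lost without control replicate 1, 3 or 4 or knockout replicate 2 or 4, with adjusted p values of up to 0.127 for Fbln2, 0.0938 for Gja5, 0.0862 for Sema3g and 0.0677 for Ltbp4. Gja5 (0.0538) and Fbln2 (0.0642) were also lost with the Y-linked covariate, and Sema3g (0.0509) with the adrenal covariate.

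Of 10 genes used for glomerular endothelium, 9 were tested, 0 were called lower and 1 was called higher. It was Pi16, also a gene of adventitial fibroblasts, which rose by 1.34 (SE 0.36, adjusted p 0.0401). Sost, another gene of this list, was at 8.46 ± 2.12 and 5.44 ± 0.802 CPM (−0.64, SE 0.21, adjusted p 0.0649). Of 10 genes of peritubular capillaries and vasa recta, 1 was called, Aqp1, which fell by 1.99 (SE 0.50, adjusted p 0.0331). Aqp1 is also the water channel of the proximal tubule, and these counts cannot separate the sources. In single-library fits Pi16 and Aqp1 kept their calls only without control replicate 2 or knockout replicate 3 (adjusted p up to 0.112 and 0.101 in the other such fits). Pi16 was also lost with the Y-linked (0.0517) and adrenal (0.0533) covariates, and Aqp1 with the adrenal covariate (0.0658).

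The lymphatic list went the other way from the 10 genes. All 6 of its tested genes had fold changes above 0, with a median of 0.62, where 49.5% of all genes were below 0. Of the 6, 2 were called higher, beside 6.61% of all genes. Pdpn, present on lymphatic endothelium and also on podocytes and stromal cells, rose from 50.8 ± 5.15 to 79.5 ± 3.91 CPM (0.65, SE 0.08, adjusted p 0.00769) and kept its call without each single library. Lyve1, of lymphatic endothelium and some macrophages, was at 15.4, 29.4, 22.8 and 11.6 CPM in controls and at 45.0, 50.3, 33.4 and 47.7 CPM in knockouts, and rose by 1.15 (SE 0.27, adjusted p 0.0270). That call was lost without control replicate 1, 3 or 4 or knockout replicate 1, 2 or 4 (up to 0.0823), and with the adrenal covariate (0.0549). Prox1, the lymphatic master regulator that tubule cells also make, was at 7.76 ± 1.80 CPM in controls and at 8.58 to 15.5 CPM in knockouts (0.63, adjusted p 0.0865). The defining chemokine Ccl21a was at 0 in 7 libraries and at 0.05 CPM in control replicate 2. Summed over the 7 genes, controls held 132 to 180 CPM and knockouts 221 to 295 CPM. The most abundant of these were Reln, at 80.4 ± 14.2 and 123 ± 27.7 CPM (adjusted p 0.0516), and Pdpn. The lymphatic receptor Flt4, counted in the VEGF list, did not rise. It was at 19.0 ± 1.33 and 17.6 ± 2.74 CPM (−0.11, adjusted p 0.563).

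Values of other cell types are given here beside the endothelial genes, and their part in these results was not tested. Of 12 podocyte genes, 2 were called lower, Nphs1 (−1.92, SE 0.46, adjusted p 0.0300) and Podxl (−1.13, SE 0.27, adjusted p 0.0300), the latter also present on endothelium. Without single libraries their adjusted p values reached 0.0952 and 0.0913, and they were 0.0570 and 0.0569 with the adrenal covariate. The summed podocyte list ran from 999.6 to 1581 CPM in controls and from 833 to 1225 CPM in knockouts, with knockout replicate 3 again the highest knockout and control replicate 2 the lowest control. All 10 proximal tubule genes were called lower. The smallest adjusted p values were those of Pck1 (−3.85, 0.00724), Gatm (−2.99, 0.0110), Miox (−5.86, 0.0134) and Slc22a6 (−4.51, 0.0164). Pck1 kept its call without each single library, and the others reached 0.0524, 0.0566 and 0.0647. The sum of the 10 ran from 452 CPM (control replicate 2) to 1818 CPM in controls. In knockouts it ran from 79.7 to 333 CPM (knockout replicate 3). None of the 12 pericyte and smooth muscle genes was called by edgeR, with 2 at an unadjusted p under 0.05, beside 35.1% of all genes. Their sum was 1077 to 1568 CPM in controls and 900.3 to 1200.1 CPM in knockouts. Rgs5, a pericyte gene, had the smallest adjusted p of these, 0.0540 (−0.65, SE 0.19), and Pdgfrb, which marks the whole lineage, was at −0.06 (adjusted p 0.746).

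Blood cells can also carry some of these transcripts, Pecam1 and Icam2 among them. Of 12 leukocyte genes, 2 were called higher and 1 lower, and their sum was 131 to 152 CPM in controls and 145 to 183 CPM in knockouts. Ptprc, the pan-leukocyte gene, rose from 20.3 ± 4.99 to 38.6 ± 3.07 CPM (0.93, SE 0.16, adjusted p 0.0146), and C1qa of macrophages by 0.55 (adjusted p 0.0261), while Cd74 fell by 1.07 (adjusted p 0.0422). The last 2 reached 0.0761 and 0.12 without single libraries, and Cd74 was also lost with the Y-linked (0.0589) and adrenal (0.0993) covariates. Other macrophage genes of the list were not called and went different ways. Csf1r was at −0.40, Lyz2 at −0.03, Adgre1 at 0.03, Cd68 at 0.30, C1qb at 0.44 and Itgam at 0.89 (log2 fold change). Pf4, of platelets and macrophages, rose from 9.76 ± 1.61 to 21.7 ± 0.801 CPM (1.16, SE 0.12, adjusted p 0.00496). Of the other platelet genes, Itga2b was at 6.14 to 7.47 CPM in controls and 6.58 to 9.96 CPM in knockouts (adjusted p 0.320), and Gp1bb at 1.43 to 1.68 CPM in controls and from below all controls up to 3.38 CPM in knockouts (adjusted p 0.828). Ppbp (up to 2.07 CPM), Gp9 and Treml1 (up to 0.36 CPM) did not pass the filter. The 6 platelet genes summed to 17.0 to 20.5 CPM in controls and 29.9 to 34.7 CPM in knockouts. Without knockout replicate 4 the adjusted p of Ptprc was 0.0571, whereas Pf4 kept its call without each single library.

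Sums of the adrenal list are set here beside those of the 10 endothelial genes, and a link between them was not tested. Knockout replicate 1, with 3369 CPM of the adrenal list, and knockout replicate 2, with 19.2 CPM, held 537 and 412 CPM of the 10 endothelial genes together. Knockout replicates 3 and 4, with 35.3 and 443 CPM of the adrenal list, held 697 and 528 CPM. Control replicate 4, with 186 CPM of the adrenal list, held the most endothelial transcripts, 933 CPM. Control replicates 1, 2 and 3, with 33.9, 30.6 and 35.6 CPM of the adrenal list, held 737, 591 and 823 CPM. Over the groups, the 10 genes together were at 771 ± 145 CPM in controls (591 to 933) and 543 ± 117 CPM in knockouts (412 to 697).

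**Figure D5:**
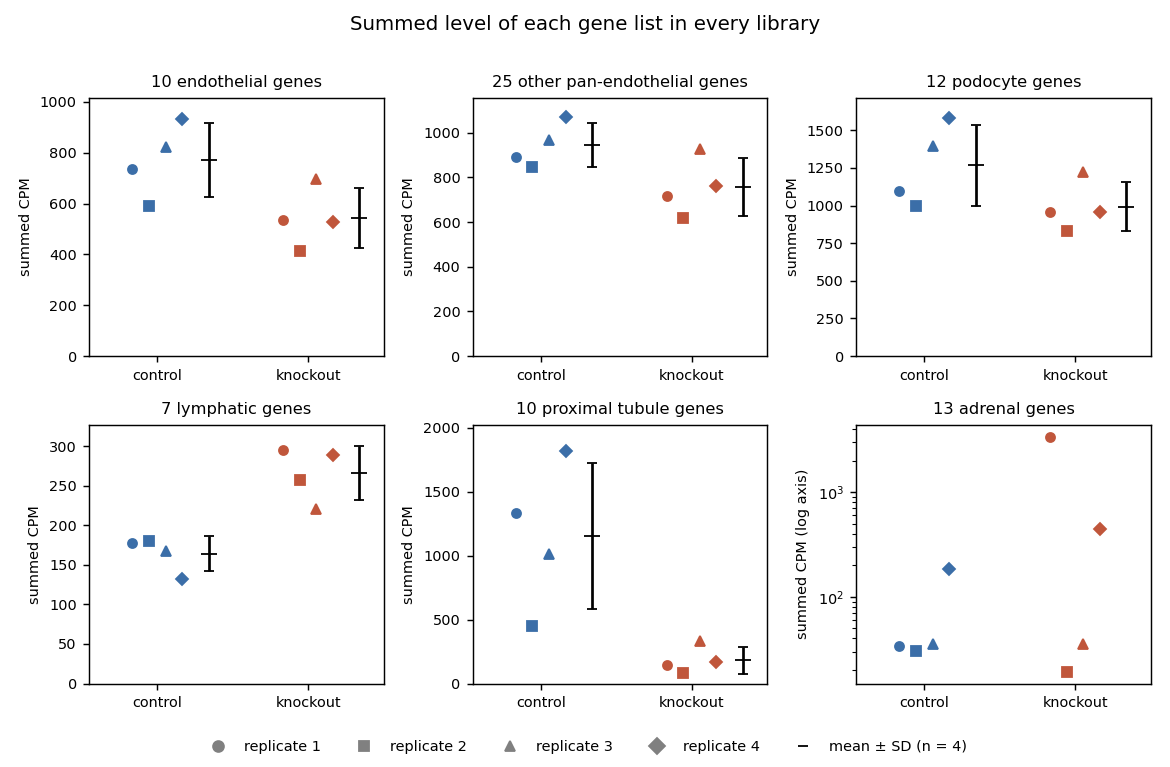
Summed CPM of 6 gene lists in each library, with the mean ± SD of 4 libraries except in the adrenal panel, which has a logarithmic axis. The endothelial, pan-endothelial and podocyte sums overlap between groups, the lymphatic sum is higher and the proximal tubule sum lower in every knockout, and the adrenal sum is high in knockout replicates 1 and 4.

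The genes most like the 10 in pattern over the 8 libraries were Tspan33, Sgsm3, Ostf1, Arfgef2, Pdgfb, Lrrfip1, Manba and Mroh1. Likeness is the root mean square difference, in log2 units, between a gene's centred log2 CPM and the mean centred profile of the 10 genes, and it ran from 0.033 for Tspan33 to 0.074 for Mroh1. The 10 genes themselves lay between 0.040 (Tek) and 0.28 (Plvap) from their own mean profile. Pdgfb encodes the growth factor by which endothelium recruits pericytes. It was at 21.0, 19.1, 25.6 and 29.3 CPM in controls and 16.0, 13.7, 21.6 and 17.0 CPM in knockouts (−0.47, SE 0.17, adjusted p 0.0909). Of the 8, only Ostf1 was called (−0.54, SE 0.15, adjusted p 0.0466), a call lost without control replicate 1, 3 or 4 or knockout replicate 1, 2 or 4 (adjusted p up to 0.127) and with the Y-linked (0.0769) and adrenal (0.0787) covariates.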

How the data were processed

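The members and gene lists were chosen with earlier results of these data known. Per the submitters' processing notes, reads were handled with Trimmomatic 0.36, STAR 2.5.2b, featureCounts (Subread 1.5.2) and DESeq2 on GRCm38; the annotation release and the strand setting are not given in the sources used here. Per the file headers, the deposited values are raw read counts of each gene, given in a series table and 1 table per library, which differed in 0 cells. The authors also deposited the summed exon length of each gene, an annotation value other than a measurement, per the file headers. Of 49315 gene IDs, 48970 matched a symbol, and 0 rows named no gene.

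After filterByExpr (18485 genes kept) and TMM scaling, groups were compared by edgeR 4.0.16 (R 4.3.3; quasi-likelihood F test) without covariate, with Benjamini-Hochberg adjustment over all genes. All adjusted p values come from this test unless another is named. Standard errors come from the fold change and its F statistic. CPM use TMM library sizes, and 1 count is worth 0.0350 to 0.0512 CPM before TMM. Ratios to Pecam1 were tested with limma 3.58.1 (trend) on log2 CPM with a prior count of 2. Both tests were checked on simulated counts with the same spread for every gene and no outlying libraries, which is a check of the code only. The labels do not say that libraries of a group are separate animals. Y-linked transcripts were low in some libraries of each group and high in others, so neither group holds only repeats of the same sample. Whether every library is a separate animal is not known. The p-values thus measure the spread between these samples, part of which may be technical.

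Genes were named by rule: the 10 members, up to 4 called genes of each of 15 other lists (otherwise the gene with the smallest adjusted p), and the 8 genes of at least 1 CPM nearest in pattern, passing over numbered predicted genes, Rik clones and pseudogenes. Other genes in the text were chosen for their role. Of the 10 members, 3 overlap another annotated gene, and of 36 other named genes 14 do. Alternatives were DESeq2 1.42.0 or its size factors alone, weighted limma-voom, other filters (none, or at least 1 CPM on average), a replicate block, covariates for Y-linked and adrenal transcripts (11 genes) and libraries left out.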

Additional observations from a re-analysis of the deposited data

Results flagged for a closer look

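By Dixon's criterion for groups of 4 samples, 4 values lay apart from the rest of their group, a criterion that picks about 1 in 20 groups by chance. A total of 112 groups of 4 were examined. Vegfc was at 17.7 CPM in control replicate 2, against 10.7 to 11.1 CPM in the other controls. Bmpr2 was at 118 CPM and Pf4 at 12.1 CPM in the same library, each above the other 3 controls. Aqp1 was at 125 CPM in knockout replicate 3, against 37.1 to 48.7 CPM in the other knockouts. No value of the 10 endothelial genes stood apart in this way.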

How the results depend on the processing

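The number of endothelial genes called lower, 1 of 10, was 6 with DESeq2, 8 with limma-voom, 0 with the Y-linked covariate and 0 with the adrenal covariate, beside 13.6%, 22.9%, 5.62% and 3.61% of all genes. It ran from 0 to 8 over the fits that left out 1 library. It was 8 without control replicate 2 and knockout replicate 3 together, which lay towards the other group in most of these genes. It was 0 without knockout replicates 1 and 4 together, where 0.00% of all genes were called lower. It stayed at 1 with DESeq2 size factors and both other filters. With the replicate number as a block it was 6, beside 9.46%; same-numbered libraries deviated from their group means with correlations of −0.11, 0.33, 0.23 and −0.06, so the numbers were not taken to pair the samples. Against Pecam1, 0 of 9 genes were called, 3 with the replicate block (Emcn, Kdr and Plvap, beside 59.9% of all genes), 3 without control replicate 2 and knockout replicate 3 together, and 0 to 2 without 1 library. Kdm1a ran from −0.29 to −0.24 without 1 library and was −0.28, not called, without knockout replicates 1 and 4. Signs changed in 4 ratios to Pecam1 and in the adrenal gene Dbh. Without 1 library each, Flt1 ran from −8.5e-06 to 0.19, Tek from −0.0195 to 0.081 and Ehd3 from −0.23 to 0.025. Tie1 was at 0.0058 without knockout replicates 1 and 4. Tek was at −0.0101 without control replicate 2 and knockout replicate 3, at −0.0151 with the adrenal covariate and at −0.0945 against Cdh5. Dbh turned to −0.98 without knockout replicates 1 and 4. Causes were not tested. The lowest count of any of the 10 genes was 326, and the parts of counting and of the spread between libraries were not separated.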
